A study of Mus musculus with 2 samples.

Results

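The microRNA families miR-124 and miR-9 are each encoded at 3 places in the mouse genome, and their 6 genes were Mir124a-1, Mir124a-2, Mir124a-3, Mir9-1, Mir9-2 and Mir9-3, chosen by name from the 2202 microRNA genes in the count tables. Small RNA of fewer than 30 bases was sequenced from left cerebral cortex of male adult mice, aged 8 to 10 months, of the strain labelled 5xFAD/CAST. The data form 1 group of 2 libraries, replicates 1 and 2, prepared from separate tissue samples under a shared donor identifier. Whether their spread is technical or lies between animals is therefore unknown. 5xFAD mice model amyloid deposition through transgenes driven by the neuronal Thy1 promoter, and CAST is a wild-derived inbred strain. Carriage of the transgenes by the sampled animals is not stated in the labels, and no mice without them were analysed here. The results are therefore levels, their split between loci and their spread between libraries, not effects of genotype.

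miR-124 is the best known neuronal microRNA: it is switched on as neural precursors become neurons, and it holds down transcripts of other tissues and repressors of neuronal genes such as Ptbp1 and the REST pathway. miR-9 acts earlier, in neural progenitors and in newborn neurons, where it tunes proliferation and differentiation through targets such as the nuclear receptor Nr2e1 and the repressor Hes1. A microRNA gene is transcribed as a long precursor that holds a hairpin, and Drosha and Dicer cut from it a 5′ arm and a 3′ arm of about the length of a read, either of which can be loaded into Argonaute. Bases 2 to 8 of the loaded arm, the seed, pair with the target.

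The mature arms of miR-9 are the same at its 3 loci, and the hairpins are shown because this limits which reads can be tied to 1 of them. The hairpins are printed 5′ to 3′ from RefSeq (GRCm38.p6), with both mature arms in capitals, so that the bases that differ between loci are the lower-case flanks and loop.
Mir9-1: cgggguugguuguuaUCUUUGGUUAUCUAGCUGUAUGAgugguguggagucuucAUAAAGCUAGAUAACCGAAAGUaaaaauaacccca
Mir9-2: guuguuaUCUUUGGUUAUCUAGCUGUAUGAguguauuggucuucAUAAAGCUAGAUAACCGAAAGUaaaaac
Mir9-3: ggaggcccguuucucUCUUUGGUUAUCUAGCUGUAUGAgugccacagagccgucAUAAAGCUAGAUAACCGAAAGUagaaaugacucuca

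The arms themselves, with the seed in capitals, are a 23-base 5′ arm and a 22-base 3′ arm, and their seeds differ from each other.
miR-9-5p: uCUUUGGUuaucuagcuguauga
miR-9-3p: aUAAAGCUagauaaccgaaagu

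A read that covers exactly 1 of these arms matches 3 annotated places, and a read can be tied to a single hairpin only if it runs into the flanks. For the 3′ arm, the shortest read that starts at the arm's first base and is found at 1 annotated place only had 24 bases for Mir9-3, 28 for Mir9-1 and 28 for Mir9-2. These reads are printed with the added bases in capitals.
Mir9-3: auaaagcuagauaaccgaaaguAG
Mir9-1: auaaagcuagauaaccgaaaguAAAAAU
Mir9-2: auaaagcuagauaaccgaaaguAAAAAC
For the 5′ arm, reads that start at the arm's first base needed 4 added bases at all 3 loci, a read of 27 bases. This is because the first 3 bases of the loop are shared.
Mir9-3: ucuuugguuaucuagcuguaugaGUGC
Mir9-1: ucuuugguuaucuagcuguaugaGUGG
Mir9-2: ucuuugguuaucuagcuguaugaGUGU
Mir9-3 thus needed the fewest added bases at the 3′ arm, and Mir9-1 and Mir9-2 were the hardest pair to tell apart. With bases added before the 5′ arm instead, Mir9-3 needed 1 base, a read of 24 bases. Mir9-1 needed 8, a read of 31 bases, and for Mir9-2 the annotated hairpin held no such read. The longest stretch that Mir9-1 shared with Mir9-2 had 33 bases, while each of them shared at most 26 bases with Mir9-3. The search covered annotated microRNA hairpins on both strands and not the rest of the genome.

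The miR-124 hairpins shared stretches of similar length toward the 3′ end of the hairpin. Mir124a-1 and Mir124a-2 had 32 consecutive bases in common, Mir124a-2 and Mir124a-3 also 32, and Mir124a-1 and Mir124a-3 had 31. Each of the 6 genes shared a stretch of 20 bases with exactly 2 other annotated places, which were the other members of its own family. Of the 20-base windows along each hairpin, those found nowhere else among annotated hairpins made up 62.1% of 66 in Mir124a-1, 66.7% of 90 in Mir124a-2, 51.0% of 49 in Mir124a-3, 60.0% of 70 in Mir9-1, 47.2% of 53 in Mir9-2 and 81.7% of 71 in Mir9-3. Within each family the locus with the smallest unique share was also the one with the shortest annotated hairpin and, in the values that follow, with the fewest reads. At the other end the families differed. Mir9-3 had the largest share, the longest hairpin and the most reads of its family. Mir124a-2 had the largest share and the longest hairpin of its family, but fewer reads than Mir124a-1. Whether unique share or length goes with reads was not tested.

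**Figure D1:**
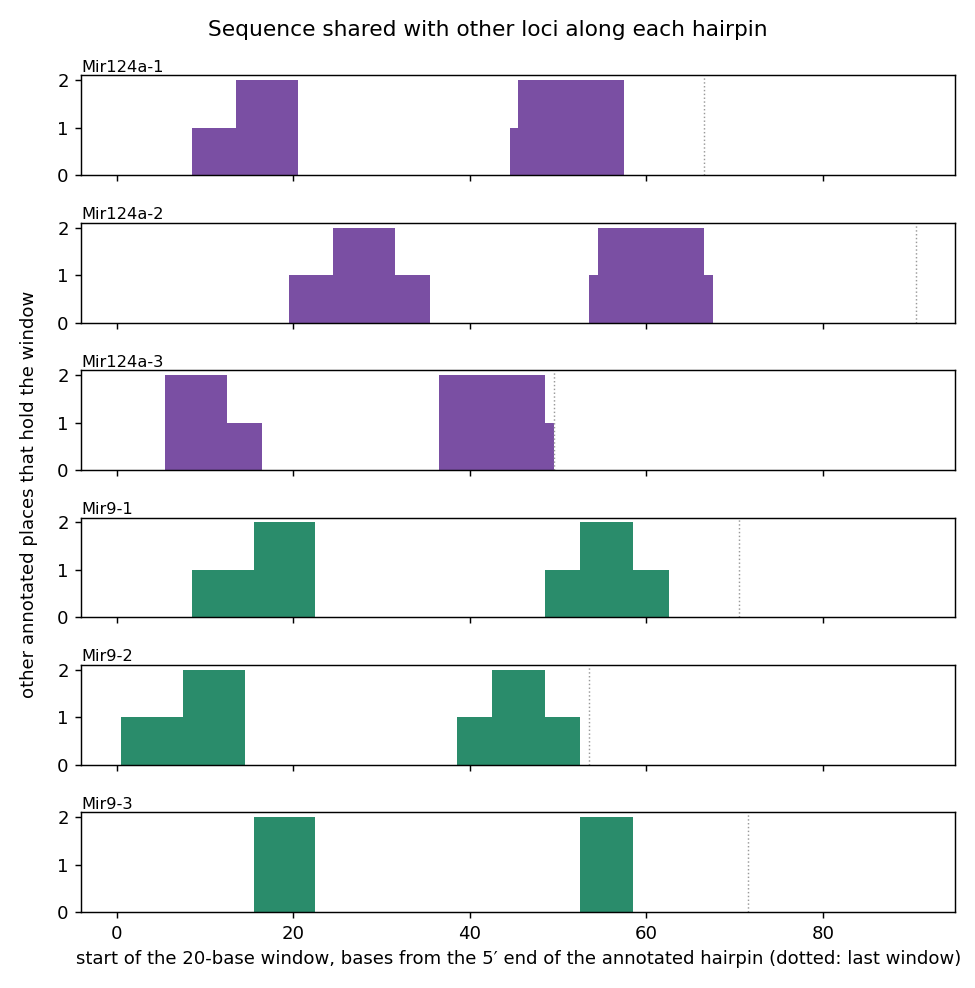
The number of other annotated places (vertical axis) that hold each 20-base window is plotted against the window's start in bases from the 5′ end of the hairpin, 1 panel per gene, with a dotted line at the last window. Each hairpin has 2 blocks of windows held at 2 other places, and Mir9-3, which has 81.7% unique windows, lacks the adjoining windows held at 1 other place that the other 5 hairpins have.

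The genes lie on 5 chromosomes, all on the plus strand (mm10, GENCODE M21, counted from 1). Mir124a-1 is on chromosome 14, 64590657 to 64590741, and all 85 bases fall in an exon of the long non-coding RNA Mir124a-1hg. Mir124a-2 is on chromosome 3, 17795662 to 17795770, within Mir124-2hg, where 27 of its 109 bases overlap an exon. Mir124a-3, on chromosome 2, 180894040 to 180894107, is 68 bases long and overlaps the long non-coding RNA Gm27032 by 3 bases only. Mir9-1 is on chromosome 3, 88215598 to 88215686, in an intron of Gm3764. Mir9-2 is on chromosome 13, 83738814 to 83738885, where its 72 bases lie in an exon of C130071C03Rik, and Mir9-3 is on chromosome 7, 79505264 to 79505353, in an intron of Mir9-3hg. All 6 hosts or neighbours are annotated as long intergenic non-coding RNAs, so none of the genes rides on a protein-coding transcript.

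The sense column assigned 4929428 of 16403925 reads (30.1%) to microRNA genes in replicate 1 and 4441328 of 16991914 (26.1%) in replicate 2. Levels are sense counts scaled to 1000000 assigned reads (CPM), where 1 read is worth 0.203 CPM in replicate 1 and 0.225 CPM in replicate 2. A read of this size covers a single mature molecule, so counts were not divided by gene length. Intervals cover counting error only, and in bulk tissue fewer cells of a type and less RNA per cell cannot be told apart. Reads that mapped to several places numbered 6320188 in replicate 1 and 5615203 in replicate 2, and these reads are in no gene count.

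Only the reads tied to a single place remained at the miR-124 loci, and they were few. Mir124a-1 had 21 reads in replicate 1 and 12 in replicate 2, or 4.26 CPM (95% Poisson interval 2.64 to 6.51) and 2.70 CPM (1.40 to 4.72). Mir124a-2 had 9 and 7 reads, or 1.83 and 1.58 CPM. Mir124a-3 had 3 reads in replicate 1, or 0.609 CPM, and 0 of 4441328 reads in replicate 2. The 95% Poisson interval of that 0 reaches 0.831 CPM, and 3 reads in replicate 2 would be 0.675 CPM. The intervals of the 2 libraries overlapped at each of these 3 loci. Together the family had 33 and 19 reads, a summed level of 5.49 ± 1.71 CPM (SD, n = 2), or 6.69 CPM (4.61 to 9.40) in replicate 1 and 4.28 CPM (2.58 to 6.68) in replicate 2.

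The miR-9 loci had more than 20 times as many reads, nearly all of them at 2 of the 3 genes. Mir9-3 had 523 reads in replicate 1 and 390 in replicate 2, or 106 CPM (97.2 to 115.6) and 87.8 CPM (79.3 to 97.0). Mir9-1 had 195 and 121 reads, or 39.6 CPM (34.2 to 45.5) and 27.2 CPM (22.6 to 32.6). Mir9-2 had 12 and 16 reads, or 2.43 and 3.60 CPM, and so stood at the level of Mir124a-1. The family summed to 730 and 527 reads, or 133 ± 20.8 CPM (SD, n = 2), with 148 CPM (138 to 159) in replicate 1 and 119 CPM (109 to 129) in replicate 2. Between the families, miR-9 had 22.1 reads for each miR-124 read in replicate 1 (exact 95% interval 15.6 to 32.4) and 27.7 in replicate 2 (17.6 to 46.4).

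**Figure D2:**
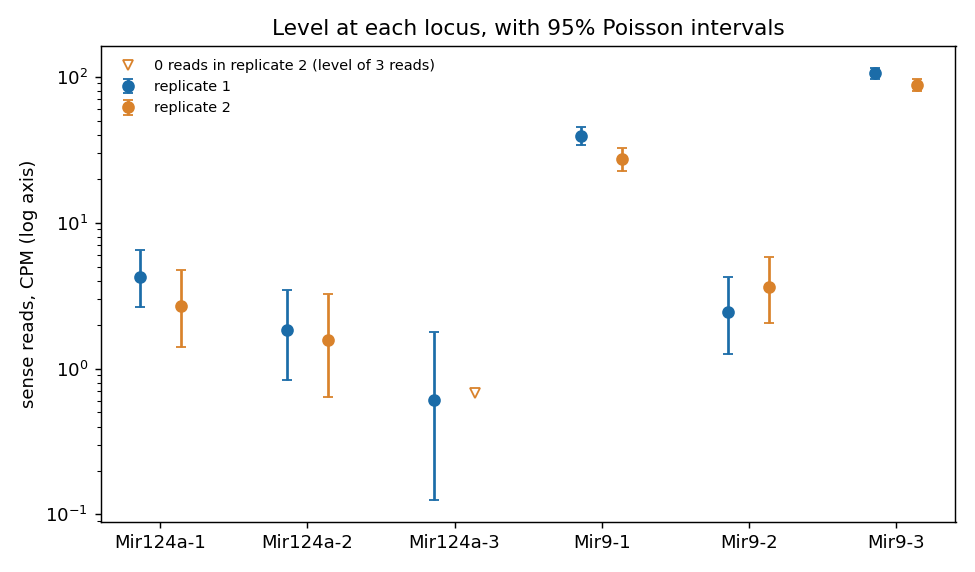
Sense reads per 1000000 assigned reads (CPM, log axis) at each of the 6 loci, with replicate 1 left of replicate 2 and bars for 95% Poisson intervals. Mir9-3 and Mir9-1 stand between 27.2 and 106 CPM, the other 4 genes at 4.26 CPM or below, and the open triangle marks the 0 reads of Mir124a-3 in replicate 2 at the level of 3 reads.

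With at least 10 reads in each library as the minimum, 4 of the 6 genes were detected, against 18.9% of all 2202 microRNA genes (417 genes). Mir124a-2 and Mir124a-3 fell short of it. The median of the detected genes was 94.7 CPM. Mir9-3, at 97.0 ± 12.9 CPM, ranked at 207 among the 417 and was the single member above that median. Mir9-1 (33.4 ± 8.71 CPM) ranked at 260, Mir124a-1 (3.48 ± 1.10 CPM) at 391 and Mir9-2 (3.02 ± 0.826 CPM) at 398, near the lower end. The order of the last pair turned between libraries, since Mir124a-1 was above Mir9-2 in replicate 1 and below it in replicate 2.

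By closeness of level, taken as the Euclidean distance of log2(CPM + 1) over the 2 libraries, the genes nearest to Mir9-3 were Mir331 (99.4 and 87.6 CPM, distance 0.09) and Mir3547 (98.4 and 85.6 CPM, 0.11). Nearest to Mir9-1 were Mir448 (distance 0.21) and Mir3086 (0.24). Mir124a-1 stood closest to Mir224 (0.09) and Mir8115 (0.10), and Mir9-2 to Mir6900 (0.07) and Mir6988 (0.11). With 2 libraries this is likeness of level and says nothing more.

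How the reads of each family were split between its loci was alike in both libraries. Mir9-3 took 71.6% of the miR-9 reads in replicate 1 (exact 95% binomial interval 68.2 to 74.9) and 74.0% in replicate 2 (70.0 to 77.7). Mir9-1 took 26.7% (23.5 to 30.1) and 23.0% (19.4 to 26.8), and Mir9-2 took 1.64% (0.852 to 2.85) and 3.04% (1.75 to 4.88). Intervals of the libraries overlapped at every locus, and an exact Fisher test of loci by libraries gave p = 0.101. Mir9-3 had 2.68 reads for each read of Mir9-1 in replicate 1 (2.27 to 3.18) and 3.22 in replicate 2 (2.62 to 3.99). Mir9-1 in turn had 16.3 (9.09 to 32.0) and 7.56 (4.47 to 13.7) reads for each read of Mir9-2, so the order of the miR-9 loci lay outside counting error in both libraries. These are shares of the reads tied to a single place and need not be the shares in which the loci make the mature microRNA.

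In miR-124 the order of the loci was also the same in both libraries, but it was less certain. Mir124a-1 took 63.6% of the reads in replicate 1 (45.1 to 79.6) and 63.2% in replicate 2 (38.4 to 83.7), ahead of Mir124a-2 with 27.3% (13.3 to 45.5) and 36.8% (16.3 to 61.6). Mir124a-3 took 9.09% (1.92 to 24.3) and none of the 19 reads of replicate 2, where the interval reaches 17.6%. An exact Fisher test of loci by libraries gave p = 0.463. Mir124a-1 had 2.33 reads for each read of Mir124a-2 in replicate 1 (1.02 to 5.79) and 1.71 in replicate 2 (0.622 to 5.14), and the second interval includes equal levels. For Mir124a-2 against Mir124a-3 the ratio in replicate 1 was 3.0 (0.749 to 17.2), which also includes them. In replicate 2, where Mir124a-2 had 7 reads and Mir124a-3 had 0, the pair differed beyond counting error (adjusted p = 0.025 over the 8 comparisons of neighbouring loci, exact binomial test). At this depth neither pair of neighbours was told apart in both libraries.

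The strand of the reads was examined at each gene, since hairpins of this kind can be transcribed from both strands. GENCODE M21 places a second microRNA gene, Gm25641, on the minus strand across Mir9-1 (chromosome 3, 88215589 to 88215696). RefSeq gives mature arms named miR-9b opposite all 3 miR-9 loci, both arms at Mir9-1 and Mir9-3 and the 3′ arm alone at Mir9-2. They are printed here with the seed in capitals because their seeds are not those of miR-9.
miR-9b-5p: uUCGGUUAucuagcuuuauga
miR-9b-3p: aUACAGCUagauaaccaaaga
The sense column had 0 reads for Gm25641 in both libraries, and no opposite-strand read was counted at Mir9-1, Mir9-2 or Mir9-3. Reads from miR-9b tied to one of these places were thus not seen. For scale, 3 reads would be 0.609 CPM in replicate 1 and 0.675 CPM in replicate 2. Of the miR-124 loci only Mir124a-3 had opposite-strand reads, 1 and 2 of them, against 3 and 0 on the sense strand, so its few reads did not lie on 1 strand.

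Overlap of the genes decided how Mir9-1 appears in the deposited columns. In the column without regard to strand Mir9-1 had 0 reads in both libraries, against 195 and 121 in the sense column, because a read in both Mir9-1 and Gm25641 counts as ambiguous there. The opposite-strand column of Gm25641 held the same 195 and 121 reads. Counts of the other miR-9 loci were identical in both columns.

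Reads kept out of the gene counts outnumbered those of the families by a wide margin. For each read at a miR-124 locus, replicate 1 had 191521 reads that mapped to several places and replicate 2 had 295537. For each read at a miR-9 locus these numbers were 8658 and 10655. Over all microRNA genes there were 1.28 such reads for each assigned read in replicate 1 and 1.26 in replicate 2. The tables do not record which microRNAs these reads belong to, and whether they hold the mature arms of miR-124 and miR-9 was not tested.

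Among neuronal microRNAs counted in the same libraries, miR-124 had the fewest reads tied to a single place of 9 families compared. By the same measure miR-9 was above miR-124 and miR-135a and below the other 6. The families miR-128, miR-129 and miR-138, which restrain neuronal excitability and shape synapses and spines, have 2 loci each, and miR-137, a regulator of neuronal maturation, has 1. miR-124 summed to 6.69 and 4.28 CPM in replicates 1 and 2, against 16414 and 9236 CPM for miR-128, and was 2452-fold (exact 95% interval 1746 to 3562) and 2159-fold (1382 to 3586) lower. miR-9, at 148 and 119 CPM, was 110.8-fold (103.0 to 119.4) and 77.8-fold (71.4 to 85.0) below miR-128. It was 42.9-fold and 46.1-fold below miR-138 (6357 and 5465 CPM), and 83.3-fold and 53.5-fold below Mir137 (12338 and 6351 CPM). Of these families the closest to it was miR-129 (1896 and 1174 CPM), with miR-9 12.8-fold (11.9 to 13.8) and 9.90-fold (9.05 to 10.8) lower. The loci Mir7-1 and Mir7-2, summed here as miR-7 (207.7 and 154 CPM), and the 2 loci of miR-218 (187 and 201 CPM) stood much nearer. This miR-7 sum leaves out the gene Mir7b, which alone had 2221 and 2108 CPM, well above miR-9. miR-9 was 1.40-fold (1.27 to 1.54) and 1.30-fold (1.16 to 1.46) below the sum of Mir7-1 and Mir7-2. It was 1.26-fold (1.14 to 1.39) and 1.69-fold (1.52 to 1.89) below miR-218. Against miR-135a, with 2 loci at a summed 62.5 and 45.9 CPM, miR-9 was the higher one. The log2 ratio was 1.24 (1.05 to 1.44) in replicate 1 and 1.37 (1.13 to 1.61) in replicate 2. This miR-135a sum leaves out the gene Mir135b, which alone had 73.4 and 116 CPM. The order against miR-9 thus holds for Mir135a-1 and Mir135a-2 only. miR-124 was lower than each of these families, by 9.33-fold (6.51 to 13.8) and 10.7-fold (6.70 to 18.2) against miR-135a. These folds lie outside counting error in each library, with the spread between libraries shown by the pairs of values. Reads that mapped to several places are in none of these sums. The folds are thus those of reads tied to a single place and need not be folds of the mature microRNAs.

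**Figure D3:**
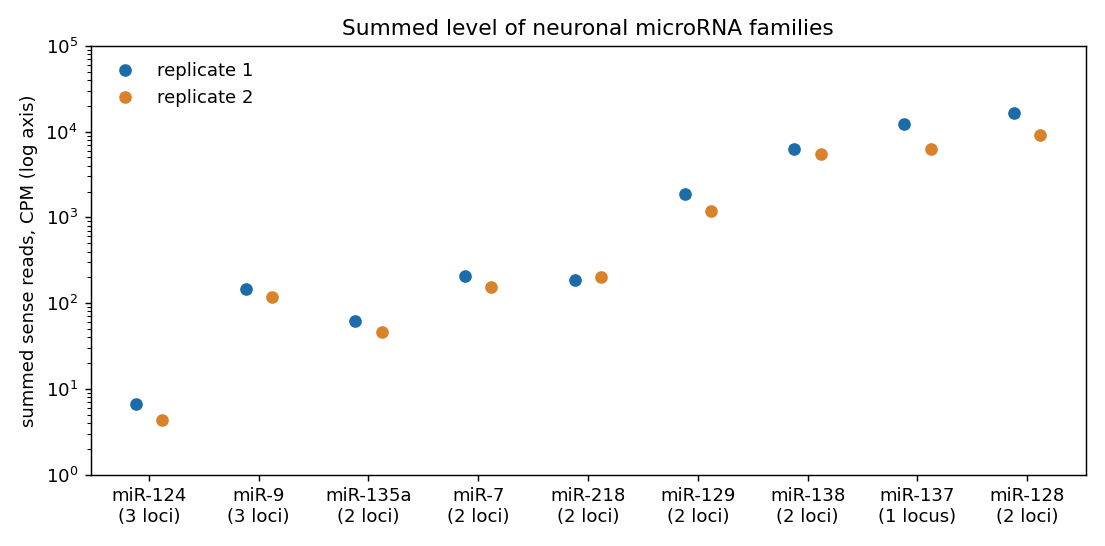
Summed sense reads per 1000000 assigned reads (CPM, log axis) of 9 neuronal families, with replicate 1 left of replicate 2 and the number of loci under each name. miR-124 stands lowest at 6.69 and 4.28 CPM. miR-9, at 148 and 119 CPM, lies above miR-135a and slightly below miR-7 and miR-218. It is well below miR-129, miR-138, miR-137 and miR-128. The miR-7 sum holds Mir7-1 and Mir7-2 and leaves out Mir7b, at 2221 and 2108 CPM. The miR-135a sum holds Mir135a-1 and Mir135a-2 and leaves out Mir135b, at 73.4 and 116 CPM. Reads that mapped to several places are in none of the sums.

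These families also differ in how many of their mature arms lie at a single annotated place. In RefSeq, none of the 2 arms of Mir9-1, Mir9-2 or Mir9-3 does. By contrast 1 of 2 arms is found at a single place for Mir128-1, Mir128-2, Mir138-1, Mir138-2 and Mir129-2, and both are for Mir137 and Mir132. At both loci summed for miR-7, miR-218 and miR-135a, 1 of 2 arms is also found at a single place. Among these sums, miR-135a was below miR-9 in level, and miR-7 and miR-218 were above it. Whether the arms found at a single place go with the level of a family was not tested. Mir129-1, whose only listed arm is shared, stood at 200 CPM, while Mir129-2 stood at 1335 CPM. A mature sequence was at hand for 1022 of the 2202 genes, among them the 3 miR-9 genes.

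Over those 1022 genes the number with no listed arm at a single place was 51, and 8 of them (15.7%) were detected. With some but not all arms at a single place, 40 of 61 genes (65.6%) were detected, and with every arm at a single place 327 of 910 (35.9%). The miR-9 genes made up 3 of the 8 detected genes without such an arm, and they took places 5 (Mir9-3), 6 (Mir9-1) and 8 (Mir9-2) there by mean CPM. The other 5 were Mir219a-2 (1783 CPM), Mirlet7c-2 (1416 CPM), Mirlet7a-1 (393 CPM), Mir129-1 (200 CPM) and Mir3074-1 (10.7 CPM). For Mir219a-2, Mir129-1 and Mir3074-1 only 1 arm is listed, so any other arm of theirs was not checked. Among detected genes alone, the median level was 148 CPM without a unique listed arm, 106 CPM with some arms unique and 106 CPM with every arm unique. These medians leave out genes under the minimum of reads, and the first rests on 8 genes, 3 of them miR-9 genes. Whether a shared arm goes with a lower level was not tested. The highest gene without a unique listed arm, Mir219a-2, reached 1783 CPM, against 126656 CPM among genes whose listed arms are all unique.

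**Figure D4:**
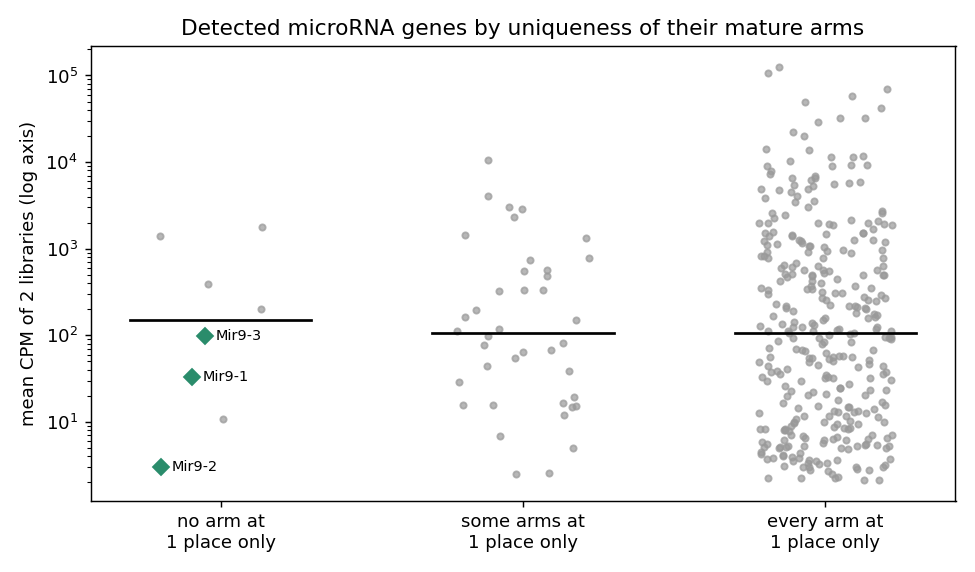
Mean CPM of the 2 libraries (log axis) for each detected gene with a RefSeq mature sequence. Genes are grouped by whether none, some or all of their listed mature arms are found at a single annotated place. Black lines are medians, and green diamonds are the miR-9 genes. All 3 miR-9 genes lie in the group with no such arm, below its median of 148 CPM.

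The same comparison by stretches of 20 bases took in all 2202 genes, miR-124 included. Detected genes made up 29.7% of the 1115 genes that share no such stretch, 37.3% of the 158 that share one with 1 other place, 24.6% of the 57 that share with 2 others, as all 6 genes here do, and 1.49% of the 872 that share with 3 or more. In the group that shares with 2 other places, 14 genes were detected at a median of 82.3 CPM, with 4 of them miR-124 or miR-9 genes. Genes that share with no other place supplied 89.7% of assigned reads in replicate 1 and 91.5% in replicate 2, and those that share with 2 others supplied 0.406% and 0.578%.

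Loci were also joined into families where RefSeq lists an identical mature arm, directly or through another locus. Of families with 3 or more annotated loci, 8 could be formed and 2 had a detected gene. The miR-124 loci are not among the 8, because no mature sequence was at hand for them. By their summed 5.49 CPM they would stand below 2 of the 8. Other genes without a listed arm, such as Mir467d (314 CPM), were left out too. The highest was the let-7 set of Mirlet7a-1, Mirlet7c-1 and Mirlet7c-2, which are linked through shared arms and promote the differentiated state, at 2366 ± 183 CPM. Unlike the miR-9 loci these do not all hold the same arms, since 1 of 2 arms of Mirlet7c-1 lies at a single place. miR-9 came next at 133 ± 20.8 CPM. Of the 8, the next were Mir344d at 1.40 ± 0.254 CPM, the miR-199 loci, with 9 and 0 reads, and the Mir344e and Mir344h loci, with 0 and 2 reads. The loci of Mir465, Mir680 and Mir692 had no read.

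Between the libraries, the miR-9 genes with the most reads were slightly higher in replicate 1. Each gene's reads in the libraries were compared by a two-sided exact binomial test that takes both totals as given, with Benjamini-Hochberg adjustment over all 417 detected genes. This compares 2 libraries and not conditions. Mir9-1 was 1.45-fold higher in replicate 1, a log2 ratio of 0.54 (0.20 to 0.88; adjusted p = 0.0025, exact binomial test). Mir9-3 was 1.21-fold higher, a log2 ratio of 0.27 (0.08 to 0.47; adjusted p = 0.00887, exact binomial test). The ratios of Mir124a-1, at 0.66 (-0.43 to 1.81; adjusted p = 0.314), and of Mir9-2, at -0.57 (-1.78 to 0.61; adjusted p = 0.443), did not pass the exact binomial test, and their intervals reach beyond a doubling in 1 direction at least. So 2 of the 4 members tested were called, both higher in replicate 1. Of all genes tested, 59.2% were called in either direction, with 34.5% higher and 24.7% lower in replicate 1.

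The gaps were of ordinary size for these libraries. The median absolute log2 ratio of the detected genes was 0.37, and the biological coefficient of variation fitted over them by edgeR was 0.340. Mir9-3 moved less than most, with 39.3% of detected genes at a smaller absolute ratio, and Mir9-1 moved a little more, with 66.7%. The 2 members under the minimum are given by their ratio alone, which was 0.21 (-1.38 to 1.87) for Mir124a-2, and Mir124a-3 had no read in replicate 2.

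**Figure D5:**
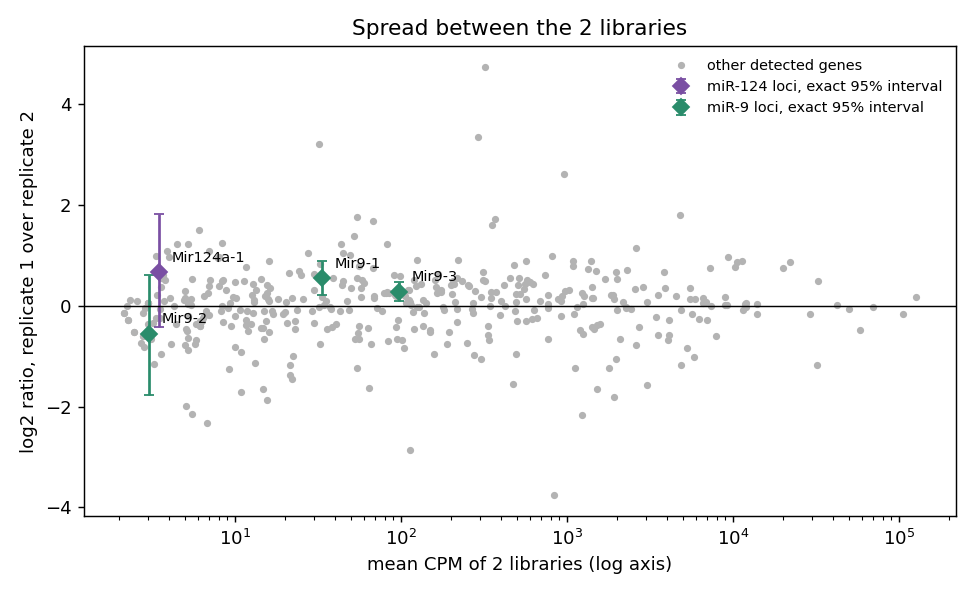
Log2 ratio of replicate 1 over replicate 2 against mean CPM (log axis) for the 417 detected genes in grey, with the detected miR-124 (purple) and miR-9 (green) genes and their exact 95% intervals. Mir9-1 (0.54) and Mir9-3 (0.27) lie above 0 within the spread of the other genes, and the intervals of Mir124a-1 and Mir9-2 include 0.

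Markers of the cell types in cortex were read as lists of microRNA genes. Of 23 other neuronal microRNAs, 22 were detected, and they took 7.43 ± 0.842% of the assigned reads, led by the activity-regulated Mir132 (32190 CPM) and by Mir128-1 (10524 CPM). Their median was 569 CPM, against 94.7 CPM over all detected genes, and the test between libraries calls smaller ratios at higher counts. Of the 22 detected, 14 were called higher and 6 lower in replicate 1, against 34.5% and 24.7% of all genes tested. Their median log2 ratio was 0.24, against 0.05 over all genes tested. Their summed share ran the other way, at 6.83% in replicate 1 and 8.02% in replicate 2, with Mir132 at 19682 and 44698 CPM. Astroglial genes (8 of 8 detected, led by Mir23b and Mir29a) took 3.80%, vessels (3 of 5, Mir126a and Mir143) 2.11%, oligodendrocytes (4 of 6, Mir338 and Mir219a-2) 0.452%, microglia and leukocytes (5 of 6, Mir150 and Mir146) 0.201%, and red blood cells (3 of 4, Mir451a and Mir144) 0.0345%. The red cell list differed most between libraries, at 0.0602% in replicate 1 and 0.00885% in replicate 2. Its detected members did not move together: Mir451a (529 and 52.2 CPM) and Mir144 (57.8 and 6.30 CPM) were higher in replicate 1, and Mir486 (15.0 and 29.9 CPM) was lower. The part of this list in the library ratios of Mir9-1 and Mir9-3 was not tested. The 3 miR-124 and 3 miR-9 genes took 0.000669% and 0.0148% of assigned reads in replicate 1, and 0.000428% and 0.0119% in replicate 2.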

How the data were processed

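Each library has a table of raw counts per microRNA gene, deposited by the authors and not normalised, with 3 columns (without regard to strand, sense, opposite strand) and 4 lines of unassigned totals. The build is mm10 and the annotation GENCODE M21, per the notes deposited with the files. The aligner and counter were not given in the sources used, and the column roles were inferred from the layout, that of STAR gene counts. Unassigned reads stayed out of library sizes: in replicates 1 and 2, 25.6% and 34.3% were unmapped, 38.5% and 33.0% mapped to several places and 5.82% and 6.54% lay outside microRNA genes.

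CPM, intervals and tests were computed from the sense counts (Python 3.11.15, scipy 1.17.1), with edgeR 4.0.16 for spread and TMM factors and DESeq2 1.42.0 for size factors. The threshold for adjusted p was 0.05, and the test between libraries was checked on simulated data. Genes that overlap in the genome were taken as 1 place. All 2202 identifiers matched GENCODE M21; sequences are from RefSeq (GRCm38.p6), whose table held 3 of the 6 members.

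With 1 group, no contrast between conditions could be fitted. The members, 6 lists and tests were chosen with earlier results of these data known. Named were the members, overlapping genes, families of 3 or more loci, the 2 most abundant genes of each list and the 2 genes nearest each detected member; the comparison families and the genes without a unique arm were named after their values were seen.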

Additional observations from a re-analysis of the deposited data

How the results depend on the processing

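In the column without regard to strand, where Mir9-1 has no reads, the summed miR-9 level was 108 CPM, the share of Mir9-3 in the miR-9 reads 96.9% and that of Mir124a-1 in the miR-124 reads 59.5%, and 1 member was called between libraries in place of 2, because Mir9-1 was not testable. Per 1000000 of all reads, the summed levels were 1.56 (miR-124) and 37.8 (miR-9), which follows from the larger denominator. With a minimum of 20 reads in each library, 2 members were detected in place of 4. Single libraries gave 4.28 to 6.69 CPM for miR-124, 119 to 148 CPM for miR-9, 63.2 to 63.6% for Mir124a-1, 71.6 to 74.0% for Mir9-3, and 4 detected members each. TMM or DESeq2 scaling left the summed levels within 1 SD. All 25 recomputed ratios of the 4 detected members (scaling, column, minimum and pseudocount) kept their direction, and those with a test kept their side of the threshold. No paired analysis was possible because the data hold 1 group, and a comparison of libraries needs both. Depth limits the miR-124 loci: with 33 and 19 reads, differences between them of less than several-fold could not be told apart.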
